A study of Mus musculus with 2 samples.

Results

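The IL-1 receptor cluster on mouse chromosome 1 holds 6 protein-coding genes in a row on the plus strand, Il1r2, Il1r1, Il1rl2, Il1rl1, Il18r1 and Il18rap. The members were found by symbol in the GENCODE vM21 annotation of GRCm38, where they are 6 of 22028 protein-coding genes. H3K4me3, a histone mark of active transcript starts, was measured in lung ILC2s by CATCH-seq, a ChIP-seq for small cell numbers that uses carrier DNA and native chromatin cut with micrococcal nuclease. Every listed peak in the 478.6 kb from 1000 bp before the first start to the end of Il18rap, chr1:40073079-40551705 of GRCm38, was taken. These were 6 of the 42126 peaks of the control library and 7 of the 51610 peaks of the maternal-asthma library.

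Both libraries came from lungs of C57BL/6J offspring at 8 weeks of age, with about 3000 sorted ILC2s each, and the mothers were 6 to 8 weeks old at sensitisation. The mother of the maternal-asthma library was sensitised with 100 µg of ovalbumin (OVA) and 25 µL of alum on day -21 and day -7 and received 500 µg of OVA intranasally at intervals between gestation days 4 and 17. The mother of the control library received PBS with the same alum and then PBS alone, and the labels give no treatment of the offspring themselves. Per the study, the experiment was performed once with 1 pregnant dam per group, so litter and treatment cannot be told apart. There was 1 library per group, and no value below has a replicate or a test between the groups. Adult ILC2s were sorted as CD45+, lineage-negative, CD90.2+ cells that carry ST2, the product of Il1rl1, so a mark at Il1rl1 is what the sort selected for and is given as a description.

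The signalling receptors of this family carry immunoglobulin domains outside the cell and a TIR domain inside it, and act through MYD88, IRAK kinases and TRAF6 to NF-κB and p38. IL-33, released by damaged epithelium, acts on ILC2s through ST2 together with the shared co-receptor IL1RAP and drives their production of IL-5 and IL-13. Il1rl1 is known for a distal and a proximal promoter, of which blood cells such as mast cells mainly use the distal one and fibroblasts the proximal one. A short transcript of the gene makes soluble ST2, a decoy for IL-33.

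Of the 6 members, 1 had a listed peak within 1000 bp of any annotated transcript start, and it was Il1rl1 in both libraries. Among all protein-coding genes the share was 50.9% in the control library and 41.9% in the maternal-asthma library. The peak lay at the distal start of Il1rl1 alone, and none was listed at its 4 other starts. No start of Il1r2, Il1r1, Il1rl2, Il18r1 or Il18rap had a peak in either library. A start peak in both lists was present at 41.2% of coding genes, one in the control library alone at 9.71% and one in the maternal-asthma library alone at 0.722%. A start without a listed peak may still carry signal under the caller's threshold. In these lists the weakest peaks over the smallest background held 9 fragments in the control library and 8 in the maternal-asthma library.

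**Figure D1:**
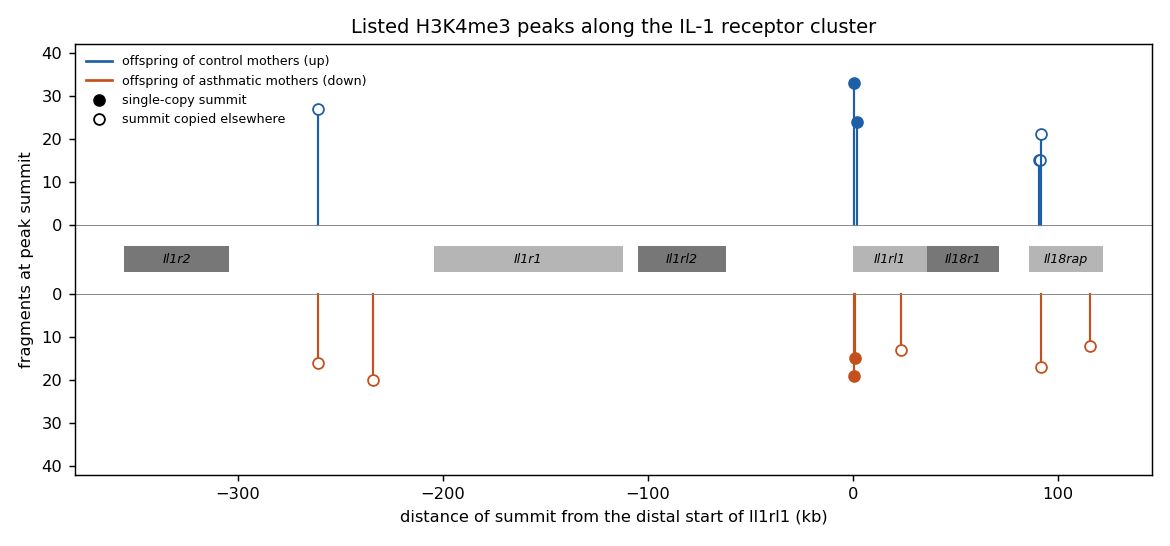
Listed peaks along the cluster. The horizontal axis is the distance of each summit from the distal start of Il1rl1 in kb, the vertical axis the number of DNA fragments at the summit, upward for the control library and downward for the maternal-asthma library, and grey bars are the genes. Filled points mark summits whose 75 bases occur once in the genome, and these sit within 2 kb downstream of the distal start of Il1rl1 in both libraries, 33 and 24 fragments upward and 19 and 15 downward.

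Il1rl1 (ENSMUSG00000026069.15, chr1:40429570-40465415) has 5 annotated protein-coding transcripts with 5 different starts. The most upstream one, Il1rl1-205, begins at the distal start, 40429570, with an exon 1 of 61 bp, and has an intron 1 of 10997 bp. It is the only annotated transcript from that start, and its last exon, exon 8, ends at 40446723, short of the end of the gene. A peak at this start does not tell which form of ST2 is made. The proximal start, 40439627, lies 10057 bp further downstream, inside that intron. In the control library the peak ran over chr1:40429821-40430212, and in the maternal-asthma library over chr1:40429944-40430317. Both lay in intron 1, downstream of the distal start, with their nearer edges 251 bp and 374 bp from it and summits at 398 bp and 504 bp. The summits were 106 bp apart, and the peaks shared 269 bp.

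The sequences below show the place with a listed peak and the start without one. The first is the 250 bases before the distal start (chr1:40429320-40429569, plus strand), the next the 269 bases shared by the peaks of both libraries (chr1:40429944-40430212, plus strand), and the last the 250 bases before the RefSeq position of the proximal start (chr1:40439379-40439628, plus strand). All are RefSeq reference sequence of GRCm38.p6, 5′ to 3′, and capitals mark matches on either strand to the motifs searched.
Il1rl1 distal: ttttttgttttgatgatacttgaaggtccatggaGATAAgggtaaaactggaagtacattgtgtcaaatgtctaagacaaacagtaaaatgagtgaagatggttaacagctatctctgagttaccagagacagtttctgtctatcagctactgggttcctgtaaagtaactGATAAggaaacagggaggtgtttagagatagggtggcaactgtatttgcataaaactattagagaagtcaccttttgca
Il1rl1 shared peak: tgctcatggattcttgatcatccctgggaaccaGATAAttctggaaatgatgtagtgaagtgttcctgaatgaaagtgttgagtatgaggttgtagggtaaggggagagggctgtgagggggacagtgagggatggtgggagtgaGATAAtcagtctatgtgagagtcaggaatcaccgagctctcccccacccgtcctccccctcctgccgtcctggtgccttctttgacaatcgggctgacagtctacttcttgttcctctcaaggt
Il1rl1 proximal: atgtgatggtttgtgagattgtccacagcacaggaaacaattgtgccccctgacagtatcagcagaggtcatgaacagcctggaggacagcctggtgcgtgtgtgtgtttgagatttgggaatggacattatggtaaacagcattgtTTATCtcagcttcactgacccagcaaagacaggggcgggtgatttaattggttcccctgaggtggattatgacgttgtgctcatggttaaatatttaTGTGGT
The 5 motifs searched were GATAA, the core bound by GATA factors, TGANTCA of AP-1, GNACA and TGTNC with 3 bases between them for the glucocorticoid receptor, TTCNNNGAA of STAT factors and TGTGGT of RUNX factors. The distal sequence held 2 GATAA matches, 211 and 74 bases before the start. The shared peak held 2 further GATAA matches. The proximal sequence held 1 GATAA match, read on the other strand, 98 bases before the start, and 1 TGTGGT match right at it. No AP-1, STAT or glucocorticoid receptor match was found in these 3 sequences, and no matches overlapped.

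GATAA occurs often, which limits what its presence can tell. It was found in 22.6% of 32841 RefSeq windows of 250 bases before a start. In windows of 269 bases around single-copy summits of start peaks of the control library it was found in 8%. TGTGGT was found in 14% and 8.74% of the same windows. TTCNNNGAA was in 7.02% and 3.65%, TGANTCA in 6.75% and 2.14%, and the glucocorticoid receptor motif in 0.387% and 0.388%. Neither set of windows was matched to the Il1rl1 sequences in GC or CpG content, so these shares do not measure how unusual the matches are. Among the other members, GATAA had 1 match in the 250 bases before the RefSeq start of Il18rap and 1 before that of Il1r2. TTCNNNGAA had 1 match before Il1r2 and 2 before the last of 3 RefSeq starts of Il18r1, and TGTGGT had 1 before Il1rl2. Neither of the RefSeq starts of Il1r1 had a match to any of the 5. A match is a description of letters and is no evidence of binding.

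The listed fold and −log10 p of a peak together fix how many DNA fragments covered its summit and how many the caller counted as background around it, if peaks were called without a control, and both were solved for. At the distal start of Il1rl1 the summit held 33 fragments in the control library (exact Poisson 95% interval 22.7 to 46.3) and 19 in the maternal-asthma library (11.4 to 29.7). The intervals overlapped and cover counting error only. The listed fold over background was 4.26 and 4.39, and the listed −log10 q 9.65 and 6.00. The 33 fragments exceeded the summit of the strongest start peak in most coding genes of that list, at the 85.5th percentile of 11206 genes with a median of 26. The 19 fragments were at the 72.9th percentile of 9227 genes with a median of 16. By fold the same peaks were at the 2.79th and 6.11th percentiles, with medians over genes of 7.22 and 6.17.

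The fold is a ratio to the local background, which was high here. Around the control summit it came to 367 fragments per 10 kb (95% interval 330 to 407), which is 3.82 times the smallest background of that library. Around the summit of the maternal-asthma library it came to 228 fragments per 10 kb (199 to 260), or 2.27 times the smallest. Among genes whose strongest start peak had a single-copy summit, 0.764% in the control library and 1.44% in the maternal-asthma library had a background at least this high. If the background had been the smallest of each library, the same summits would have had folds of 12.0 and 7.79 and −log10 p of 30.3 and 15.1, in place of 12.7 and 8.83. A 10 kb window centred on either summit includes the distal start and the summit itself, and it does not reach the proximal start.

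A second listed peak with a single-copy summit followed the first in each library. In the control library it covered chr1:40431273-40431462, 1060 bp further downstream, with 24 fragments at the summit (15.4 to 35.7), a background of 387 per 10 kb and a −log10 q of 4.12. Its nearer edge was 1703 bp from the distal start, outside the limit of 1000 bp. In the maternal-asthma library it covered chr1:40430407-40430568, only 89 bp past the first peak, with 15 fragments (8.40 to 24.7), a background of 232 per 10 kb and a −log10 q of 3.45. Its edge was 837 bp from the distal start, within the limit. These secondary peaks did not overlap each other, and their windows share fragments with those of the first peaks. All 4 peaks lay in the same intron and downstream of the same start.

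**Figure D2:**
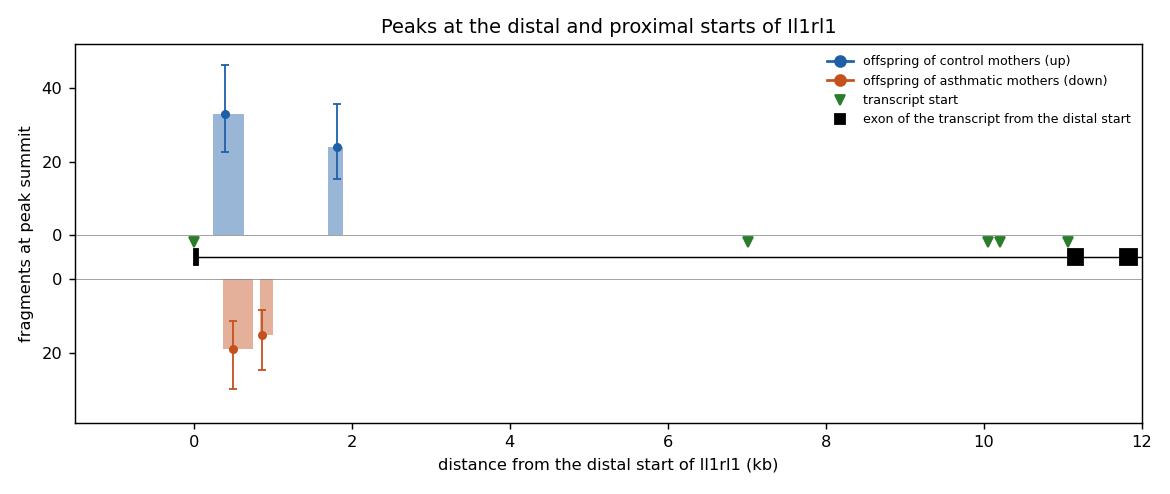
Peaks over the first 12 kb of Il1rl1. The horizontal axis is the distance from the distal start in kb, coloured blocks span the listed peaks, their height and the point at the summit give the fragments there with exact Poisson 95% intervals (control library upward, maternal-asthma library downward), triangles are annotated transcript starts and black boxes are exons of Il1rl1-205. All blocks lie within 2 kb downstream of the distal start, and no block is near the 4 starts that follow.

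The distance from the proximal start to the nearest peak was 8165 bp in the control library and 9059 bp in the maternal-asthma library. The start of Il1rl1-204, at 40436589, was 5127 bp and 6021 bp from a peak. The starts at 40439776 and 40440628 were 8314 bp and 9166 bp away in the control library and 9208 bp and 10060 bp in the maternal-asthma library. Further into the gene the maternal-asthma library had 1 more peak, chr1:40452639-40452832 in intron 9 of the transcript that starts at 40440628, with 13 fragments (6.92 to 22.2) and a −log10 q of 4.97. It was fully repeat-masked, and the 75 bases at its summit had 40 other exact copies in the genome.

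The summit fragments of Il1rl1 were 0.576 times as many in the maternal-asthma library as in the control library, with a counting interval of 0.309 to 1.04. Over 8672 genes with a single-copy start peak in both libraries the median of this ratio was 0.609, with 10th and 90th percentiles of 0.462 and 0.808, and 39.5% of genes were at or below Il1rl1. By this ratio Il1rl1 sat close to the middle of these 8672 genes, which leave out those with a start peak in 1 library alone. The background ratio was 0.621 (0.524 to 0.735). Its median over 5202 genes with a background above the minimum in both libraries was 0.777, and 5.56% of genes were at or below Il1rl1. Among the 174 of these with at least 300 fragments per 10 kb in the control library, the median was 0.667 and 27% were at or below it. That limit was chosen with the value of Il1rl1 known, and a high control value favours a low ratio by construction, so nothing is read from either share. The smallest backgrounds of the libraries had a ratio of 1.04 per 10 kb. Summit fragments are instead counted over a fragment length, taken as 190 and 156 bp. In that unit the smallest backgrounds were 1.83 and 1.57 in the control and maternal-asthma libraries. The summit ratios above were not adjusted for this difference in length. Both measures were lower in the maternal-asthma library at the median start peak. With 1 library per group, weaker enrichment in that library, a lower mark in each cell and fewer cells that carry it cannot be told apart.

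**Figure D3:**
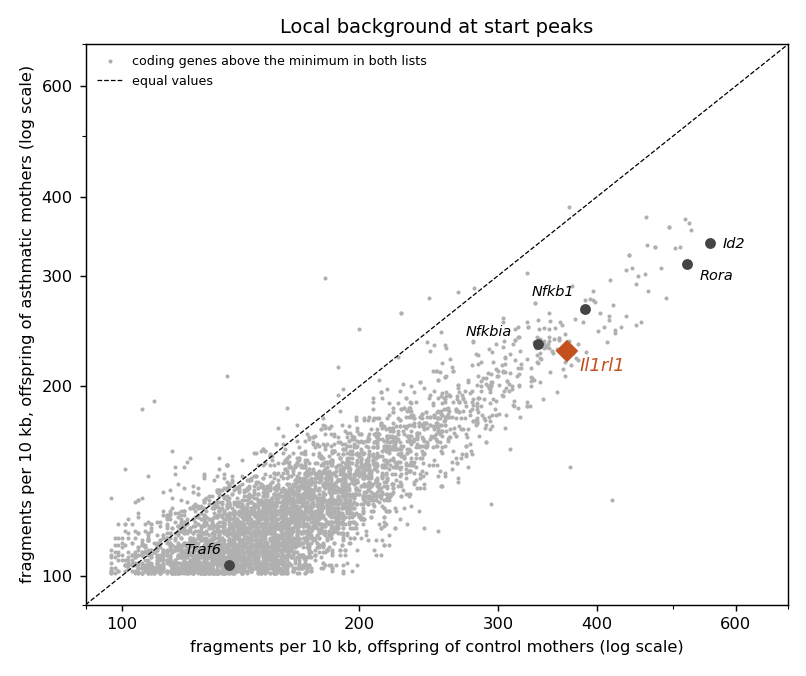
Local background at start peaks, in fragments per 10 kb on log axes, for the control library (horizontal) and the maternal-asthma library (vertical). Each grey point is 1 of 5198 coding genes above the minimum in both libraries and within the axes, 4 lie beyond them, and dark points are 5 signalling or ILC2 genes picked as examples. Il1rl1, at 367 and 228, lies in the upper right beside Nfkb1 at 387 and 266 and Nfkbia at 337 and 234, the latter from start peaks that did not overlap, and below the line of equal values like most genes.

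Among the ILC2 markers, the background per 10 kb was higher than at Il1rl1 for Id2, a factor needed for innate lymphoid cells, with 557 and 338, and for Rora, a factor needed for ILC2s, with 520 and 313. At all other ILC2 markers with a start peak it was lower than at Il1rl1. Thy1, which encodes the sorted antigen CD90, had 185 and 152. Areg and Il2ra sat on the smallest background of each library, 96.11 and 100.4. Gata3 and Il5, listed in the control library alone, had 181 and 136. Il7r, the receptor for IL-7, had a start peak in the control library alone, with 33 fragments at its summit, as many as Il1rl1, over a background of 313.

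The receptors that flank Il1rl1 carried no listed peak at a start. Il1r2 encodes a decoy receptor that binds IL-1 without signalling, and Il1r1 encodes the signalling IL-1 receptor. The 4 starts of Il1r2 were at least 25381 bp and 25327 bp from a peak in the control and maternal-asthma libraries, and the 3 starts of Il1r1 at least 56288 bp and 29426 bp. Il1rl2 encodes the IL-36 receptor, and at least 104210 bp and 104333 bp lay between its 4 starts and the nearest peak, the one at the distal start of Il1rl1. Il18r1 and Il18rap encode the ligand-binding and the accessory chain of the IL-18 receptor. Il18r1 begins 137 bp after the end of Il1rl1, yet its nearest peaks were 34090 bp and 12720 bp away. For Il18rap the nearest peaks were 4605 bp and 3518 bp from a start. The nearest peaks of Il1r2, Il1r1 and Il18rap, and that of Il18r1 in the maternal-asthma library, were fully repeat-masked with copied summits. The distances therefore do not rank the members by their distance from the mark at Il1rl1. No peak lay within the bodies of Il1r2, Il1r1, Il1rl2 or Il18r1 in either library.

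Peaks elsewhere in the cluster lay in repeats. Between Il1r2 and Il1r1 the control library had a peak at chr1:40168351-40168792 with 27 fragments (17.8 to 39.3) and a −log10 q of 18.9, above the 9.65 of the Il1rl1 peak. The maternal-asthma library had one over the same place, chr1:40168244-40168755, with 16 fragments (9.15 to 26.0) and a −log10 q of 8.65. Both were fully repeat-masked, and both sat on the smallest background of their library, 96.11 and 100.4 per 10 kb. The maternal-asthma library had another at chr1:40195499-40195654, with 20 fragments (12.2 to 30.9) over a background of 280 per 10 kb, whose summit had 659 other copies.

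In intron 3 of Il18rap the control library had 3 peaks, with 15, 15 and 21 fragments in order along the gene. The last of them, chr1:40521125-40521451, overlapped the peak of the maternal-asthma library at chr1:40521096-40521457, which had 17 fragments. The overlap was 327 bp, and the −log10 q were 9.45 and 7.79. The maternal-asthma library had a further peak in intron 11 of Il18rap, chr1:40545210-40545365, with 12 fragments. All of these Il18rap peaks were fully repeat-masked, and their summits had between 1 and 5998 other copies. Full masking was general, at 94.7% and 95% of all peaks with a copied summit. A single read of 75 bases from such a place cannot be assigned to it by sequence alone, so these peaks are listed here without being ascribed to a gene.

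The contrast can be read from the 75 bases around the summits, all on the plus strand of GRCm38. The first is the control summit at the distal start of Il1rl1 (chr1:40429931-40430005) and the next that of the maternal-asthma library (chr1:40430037-40430111), each with no other exact copy on the 21 assembled chromosomes. The last is the control summit between Il1r2 and Il1r1 (chr1:40168510-40168584), with 1202 other copies.
Il1rl1 control summit: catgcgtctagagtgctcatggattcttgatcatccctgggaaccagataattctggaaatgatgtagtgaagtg
Il1rl1 maternal-asthma summit: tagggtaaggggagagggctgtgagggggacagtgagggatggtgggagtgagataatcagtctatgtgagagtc
Il1r2 to Il1r1 control summit: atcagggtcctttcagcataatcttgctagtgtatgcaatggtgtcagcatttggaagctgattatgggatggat
Single-copy summits were 2 of 6 in the control library and 2 of 7 in the maternal-asthma library, and each of them was in intron 1 of Il1rl1. The shares of single-copy summits in the whole lists were 34.5% and 22.7%. Over all peaks farther than 1000 bp from a coding start, 7.44% and 5.21% had a single-copy summit, against 96.8% and 95.2% of peaks at starts.

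Of the peaks in the cluster, 3 of 6 (50%) in the control library and 3 of 7 (42.9%) in the maternal-asthma library overlapped a peak of the other library by at least 1 bp. The same shares over the whole lists were 71.8% and 60.9%, and 72.7% and 52.5% for peaks farther than 1000 bp from a coding start. The shared places were the distal start of Il1rl1, the repeat between Il1r2 and Il1r1 and the repeat in intron 3 of Il18rap. Peaks covered 1843 bp of the cluster in the control library (0.385%) and 1916 bp (0.40%) in the maternal-asthma library, where the genome as a whole had 0.593% and 0.562%. There were 12.5 and 14.6 peaks per Mb, against 15.4 and 18.9 in the genome. The nearest peaks outside the cluster had summits 2015 bp and 2079 bp past the end of Il18rap. On the other side the nearest edges were 25381 bp and 25327 bp before the first start of Il1r2, and all of these were fully repeat-masked with copied summits.

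The starts of the members were poor in CpG, and the share of coding starts with a peak rose with CpG content in both libraries. The ratio of observed to expected CpG in the 1000 bp around the 24 member starts ran from 0.09 to 0.57. At the distal start of Il1rl1 it was 0.12, with 5 CpG in 1000 bp, and the 250 bases before that start hold no CpG. Of all coding transcript starts with a ratio below 0.2, 3.34% had a peak in the control library (exact Clopper-Pearson 95% interval 3.02 to 3.69%) and 2.19% in the maternal-asthma library (1.93 to 2.47%). The class from 0.6 to 0.8 had 79.7% and 64.2%, and that of 0.8 and above 90.4% and 82.1%. The proximal start, without a peak, had a ratio of 0.28, in a class where 11.2% and 7.33% of starts had a peak. Of the other members, Il1rl2 had the highest single ratio, 0.57, and its 4 starts, from 0.48 to 0.57, were in a class with peaks at 46.7% and 31.6% of starts, and none of its 4 starts had one. The mark at the distal start of Il1rl1 was thus found in the class of starts where it was rarest, while the 7 member starts with a ratio of 0.4 or more, of Il1r2, Il1r1 and Il1rl2, had none. Several of these starts lie so close together that their 1000 bp windows overlap, so they are not separate cases. Those of Il1r1-203 and Il1rl2-202 belong to noncoding transcripts, outside the coding starts counted in the class shares.

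**Figure D4:**
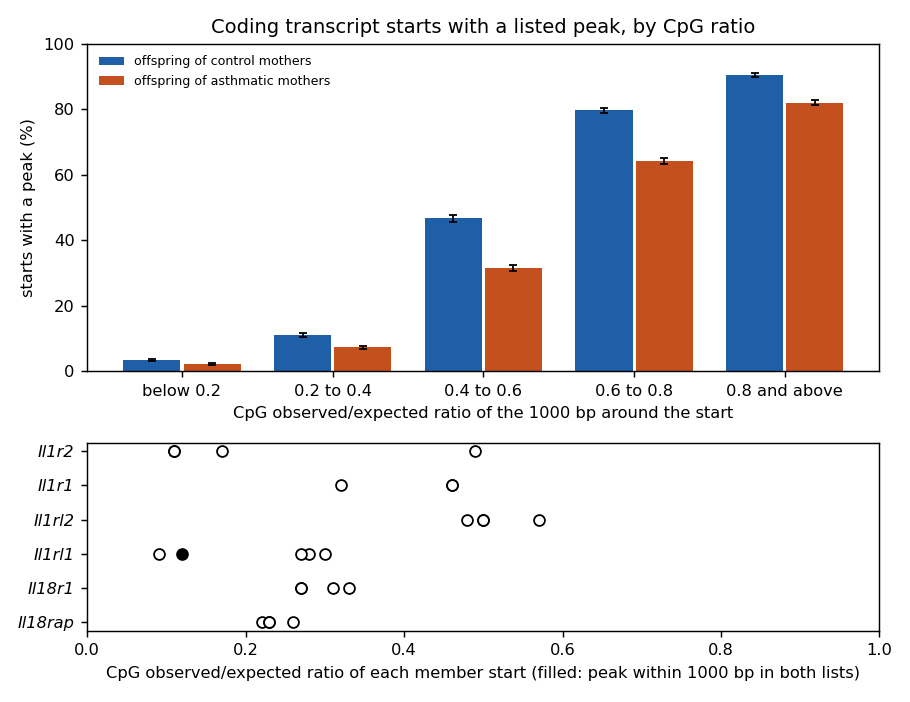
Start peaks and CpG content. Above, bars give the percentage of coding transcript starts with a peak within 1000 bp in 5 classes of the CpG observed/expected ratio for both libraries, with exact 95% intervals, from 3.34% and 2.19% in the lowest class to 90.4% and 82.1% in the highest. Below, points show the ratio at each of the 24 member starts, and the filled point is the distal start of Il1rl1 at 0.12.

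Outside the cluster, Il1rap, the co-receptor that ST2 and the IL-1 and IL-36 receptors share, had a start peak in both libraries, with 24 fragments (−log10 q of 15.7) in the control library and 11 (4.38) in the maternal-asthma library. Sigirr, an inhibitory receptor of the family, had one in the control library alone, with 19 fragments and a −log10 q of 7.46. Il1rapl1 and Il1rapl2, which act in neurons, had none. Of the 11 ligands and soluble binders, which are Il33, Il18, Il1a, Il1b, the receptor antagonist Il1rn, the IL-18 binding protein Il18bp and the IL-36 and IL-38 genes Il1f5, Il1f6, Il1f8, Il1f9 and Il1f10, 0 had a start peak in either library (upper limit of the exact 95% interval 28.5%), beside 50.9% and 41.9% of all coding genes.

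Of the 20 signalling genes downstream of these receptors, 20 had a start peak in the control library, where 50.9% of all coding genes had one, and 18 in the maternal-asthma library, where 41.9% had one. Ikbkg, the regulatory subunit of the IκB kinase, and Map2k6, a kinase of p38, were listed in the control library alone, with 13 and 12 fragments and −log10 q of 5.22 and 4.60. The adaptor Myd88 had 30 fragments in the control library and 18 in the maternal-asthma library, and the kinase Irak4 had 28 and 17, in peaks that did not overlap each other. The ubiquitin ligase Traf6 had 32 and 23. Nfkb1, a subunit of NF-κB, had 45 and 28, and Mapk14, p38α itself, had 43 and 20. Irak3, an inhibitory IRAK, had 22 and 21. For Map3k7, the kinase TAK1, the strongest start peak of the maternal-asthma library was at a copied summit. Irak1, Irak2, Tab1, Tab2, Tab3, Tollip, Chuk, Ikbkb, Rela, Nfkbia and Map2k3 also had a start peak in both libraries.

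Of the 6 nearest coding genes around the cluster, 3 on either side, 3 had a start peak in both libraries, near the 41.2% of all coding genes. Map4k4 had 30 and 19 fragments, Slc9a2 18 and 14, and Mfsd9 29 and 18, all with single-copy summits. Slc9a4, the neighbour of Il18rap, had none, nor did Rfx8 and Gm3646.

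The labelled cell type was checked at 12 ILC2 markers, of which 9 (75%, exact 95% interval 42.8 to 94.5%) had a start peak in the control library and 6 (50%, 21.1 to 78.9%) in the maternal-asthma library. The shares of all coding genes were 50.9% and 41.9%, within both intervals, so these counts alone do not identify the cells. Il2ra was counted in both libraries at a copied summit, and 8 and 5 markers are left with single-copy summits. Il7r, Gata3 and Il5 were listed in the control library alone, Gata3 with 18 fragments (−log10 q of 5.65) and Il5 with 15 (5.19), and Icos, Klrg1 and Il13 in neither. Rora, Thy1, Id2 and Areg were listed in both at single-copy summits. Mast cells and basophils also carry ST2, and 0 of 5 of their markers had a start peak in either library. The same held for the 6 T cell, 4 B cell, 5 macrophage, 4 neutrophil and 5 fibroblast markers. In the control library alone, Eomes (1 of 4 NK and ILC1 markers), Epcam and Cdh1 (2 of 5 epithelial markers) and Kdr (1 of 4 endothelial markers) had a start peak. Their summits held 12 fragments for Eomes, 24 for Epcam, 18 for Cdh1 and 11 for Kdr, with −log10 q of 4.53, 14.7, 8.98 and 3.84, and their part in the values above was not tested. The files give no number of reads, and the smallest background, 96.11 and 100.4 fragments per 10 kb, stands in for depth.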

How the data were processed

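H3K4me3 CATCH-seq of lung ILC2s gave 1 library for adult offspring of control mothers and 1 for adult offspring of asthmatic mothers. According to the methods, paired reads were trimmed with TrimGalore and Cutadapt, mapped to GRCm38 with Bowtie 2 and freed of duplicates with Sambamba. The peak caller, its control and its threshold are not given in the sources used here, and the reporting summary names MACS2 for the ATAC-seq while denying peak calls on the ChIP-seq, for which it nonetheless lists peak files. The deposited lists hold, per peak, the authors' fold (a ratio of summit signal to the caller's background), a −log10 p-value, a −log10 q-value and a score, which was not used. The lowest deposited −log10 q was 2.02 and 2.01. These values were ranked within each list only. Folds, −log10 p and −log10 q of both lists are printed together in places, but no comparison between lists was drawn from them. Comparisons between lists used the solved fragments and backgrounds, and whether peaks were listed and overlapped.

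Peaks, counted from 1, were set against GENCODE vM21 starts at a distance of at most 1000 bp. Summit fragments and background were solved from fold and −log10 p with a Poisson model, 1 being added to signal and background in the fold, and a fragment length equal to the smallest peak width, 190 and 156 bp. Only whole numbers of summit fragments were tried. For 99.99% of peaks in both libraries the best of them gave the listed −log10 p within 0.001. These numbers are derived and assume no control. The 75 bases at each summit were searched for exact copies over 21 chromosomes in both orientations. "Fully repeat-masked" means at least 99.5% of bases. Intervals cover counting error only. Solver, distances and copy counts were tested on simulated data with known answers. The solver's data were made with the same model, so that test cannot show that the lists were called this way.

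The members, the 35 family and pathway genes, the 54 markers of 10 cell types, the 5 motifs and the settings were chosen with earlier results of these data known. Named genes are the members, the 3 nearest coding genes on either side, the family and pathway genes and the ILC2 and other markers with a start peak, with values for members first and for genes of the lists whose start peak was in 1 library alone. Markers without a peak are counted, and 1 marker is not reported here by name. The other values were picked as examples after they were seen. With 1 library per group no test was made. Alternatives were distances of 500 and 2000 bp, a −log10 q of at least 5, the 10000 peaks of highest −log10 p, protein-coding transcripts, single-copy summits, gene bodies, joined peaks, stricter overlaps and strongest peaks by fold. RefSeq promoter sequences of GRCm38.p6 were found for 6 of 6 members, at 10 starts. Software was Python 3.11.15, numba 0.67.0, numpy 2.4.6, scipy 1.17.1, pandas 2.3.3 and matplotlib 3.10.9.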

Additional observations from a re-analysis of the deposited data

How the results depend on the processing

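Values are given for the control library first. When only the 10000 peaks with the highest −log10 p were kept, members with a start peak fell to 0 and 0, family and pathway genes to 13 and 5, from 22 and 19, and coding genes to 7088 and 2052. Peaks in the cluster were then 1 and 0, over 442 and 0 bases, and the 1 left was the repeat between Il1r2 and Il1r1. A −log10 q of at least 5 left 3 peaks over 1161 bases in the control library. Single-copy summits alone left 2 and 2 peaks over 582 and 536 bases, of which 1 and 1 were shared. Gene bodies with 1000 bp on either side left 1248 bases under peaks in the maternal-asthma library. Fewer peaks enter under each of these settings by construction. Of 66 alternative values, 47 stayed within their limits, which were 1.5 times the main value for counts and the exact Poisson interval for fragments, and 19 moved. Il1rl1 remained the 1 member with a start peak at distances of 500 and 2000 bp, at a −log10 q of at least 5, with protein-coding transcripts alone and with single-copy summits alone. Chosen by fold, the strongest Il1rl1 peak of the maternal-asthma library was another one, the copied peak in intron 9 with 13 fragments, which says nothing about the 19 at the distal start. Over the smallest background no peak with under 9 and 8 fragments was listed, so weaker signal at a start would not be seen. No paired analysis was possible because each group had 1 library.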
